A study of Mus musculus with 4 samples.

Results

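The angiopoietin and Tie receptor system was followed through 5 genes, 5 of the 27998 genes in the count tables: the ligands Angpt1 and Angpt2, the receptors Tek (Tie2) and Tie1, and the receptor phosphatase Ptprb (VE-PTP). The genes were chosen for their pathway, with earlier results of these data known. The samples were 4 droplet single-cell RNA libraries from mouse spinal cord, each holding immune cells sorted on CD45 and endothelial cells (ECs) sorted on CD31. All mice had experimental autoimmune encephalomyelitis (EAE), induced with a MOG peptide in complete Freund's adjuvant and pertussis toxin, so that no library shows the healthy cord. The mIgG1 and Ang2 Ab libraries came from wild-type C57Bl/6JOlaHsd mice of 15 weeks that received an isotype control or a function-blocking anti-Ang2 antibody from the day of immunization and were taken 14 days later. The Ctrl and EC-Ang2 libraries came from mice labelled C57Bl/6JCrl, 12 to 14 weeks old, 12 days after immunization. EC-Ang2 mice carried VE-cadherin-tTA and Tet-OS-Ang2, a transgene driven in ECs and held off until birth with doxycycline. Ctrl mice were littermates with only 1 of these transgenes, and both groups of this pair received less pertussis toxin than the antibody pair. The number of mice behind a library was not given in the sources used here.

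Each condition was 1 library, so no test between conditions was possible and no p-value is given. Intervals are exact 95% intervals of the molecule counts (Poisson for levels, Clopper-Pearson for shares, conditional binomial for ratios). They cover counting error only and contain no difference between animals. Strain, age, day and toxin dose differed between the pairs, so Ang2 Ab was compared with mIgG1 and EC-Ang2 with Ctrl.

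Angiopoietins are secreted ligands of the receptor tyrosine kinase Tie2, which is carried mainly by ECs. Ang1, made by pericytes and other cells around vessels, activates Tie2 and keeps the endothelium quiescent and tight. Ang2 is stored and released by ECs themselves, competes with Ang1 in inflamed or growing vessels, and can also act through integrins. Tie1 pairs with Tie2 and modulates it, and VE-PTP dephosphorylates Tie2.

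Barcodes with at least 2000 unique molecular identifiers (UMIs, 1 per captured transcript) numbered 5427 to 7498 per library, and 5180 to 7039 cells were used after removal of doublets and of cells with many mitochondrial UMIs. Cells were grouped by clustering without the members. ECs numbered 2929 in mIgG1, 3332 in Ang2 Ab, then 3395 in Ctrl and 2391 in EC-Ang2, and 12 of 13 EC markers had a UMI in at least 10% of them in each library. Mural-like cells were few (99, 167, 161 and 65 in the same order), and the sort did not select for them. Macrophage-like cells numbered 888 to 2553 and microglia-like cells 129 to 1070. The median EC held 4733, 3620, 4262 and 6144 UMIs. For that reason shares of cells are given after every cell was thinned to 2000 UMIs, and levels as the class's UMIs of a gene scaled to a common total (counts per 1000000 UMIs, CPM). Library pairs shared 51 to 77 cell barcodes. A tag at the 3' end is counted once per transcript, and levels of different genes are not ranked against each other here.

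The targeted gene was examined first. Angpt2 (ENSMUSG00000031465, GRCm38 chromosome 8, 18690263 to 18741562, minus strand) was measured in ECs at 69.5 CPM (95% interval 65.7 to 73.5) in Ctrl and at 1119 CPM (1105 to 1134) in EC-Ang2. The EC-Ang2 library was therefore 16.1-fold above its control, a log2 ratio of 4.01 (3.93 to 4.09), in the direction its label gives. Counts of the transgene and of the endogenous gene cannot be told apart in the table.

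Angpt2 also stood higher in ECs of the Ang2 Ab library, in which the antibody binds the protein. Its level was 49.4 CPM (46.2 to 52.6) in mIgG1 and 311 CPM (303 to 320.3) in Ang2 Ab. This was a 6.31-fold difference, a log2 ratio of 2.66 (2.56 to 2.76). Among genes with at least 50 UMIs in the ECs of a pair, Angpt2 had the 8th highest ratio of 11279 genes for Ang2 Ab over mIgG1 and the 11th highest of 11357 for EC-Ang2 over Ctrl. Of the 4 members with enough UMIs, 1 (Angpt2) was at least 1.5-fold higher in Ang2 Ab, where 2.99% of genes were, and 0 were at least 1.5-fold lower, where 4.21% were. In EC-Ang2 again only Angpt2 of the 4 was at least 1.5-fold higher, beside 8.55% of genes, and 0 of the 4 were at least 1.5-fold lower, beside 8.5% of genes.

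In both libraries with high Angpt2, most ECs still showed no Angpt2 UMI at 2000 UMIs per cell. The share of ECs with at least 1 Angpt2 UMI was 6.49% (5.62 to 7.44) in mIgG1, with 190 ECs. It was 22.0% (20.6 to 23.4) in Ang2 Ab, with 733 ECs, then 7.51% (6.65 to 8.45) in Ctrl, with 255, and 27.3% (25.5 to 29.1) in EC-Ang2, with 653. Unthinned, the shares were 12.97%, 30.0%, 12.2% and 41.9%. As background for these shares, 0.235%, 1.36%, 0.338% and 3.21% of macrophage-like cells had a UMI at the same depth.

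The libraries differed in how many UMIs each Angpt2-bearing EC carried as well as in how many ECs carried any. ECs with a UMI held a mean of 1.38 Angpt2 UMIs in mIgG1, 2.43 in Ang2 Ab, then 1.83 in Ctrl and 6.06 in EC-Ang2 at 2000 UMIs per cell. ECs with 5 or more UMIs numbered 3, 102, 14 and 218 in the same order, and the highest EC held 5, 16, 11 and 76. In EC-Ang2 the 10% of ECs with the most Angpt2 UMIs held 82.0% of them, and in Ang2 Ab they held 75.4%. In mIgG1 and Ctrl under 10% of ECs had a UMI, so that this share was 100% by construction. An EC with 0 UMIs at this depth is not shown to lack the transcript.

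**Figure D1:**
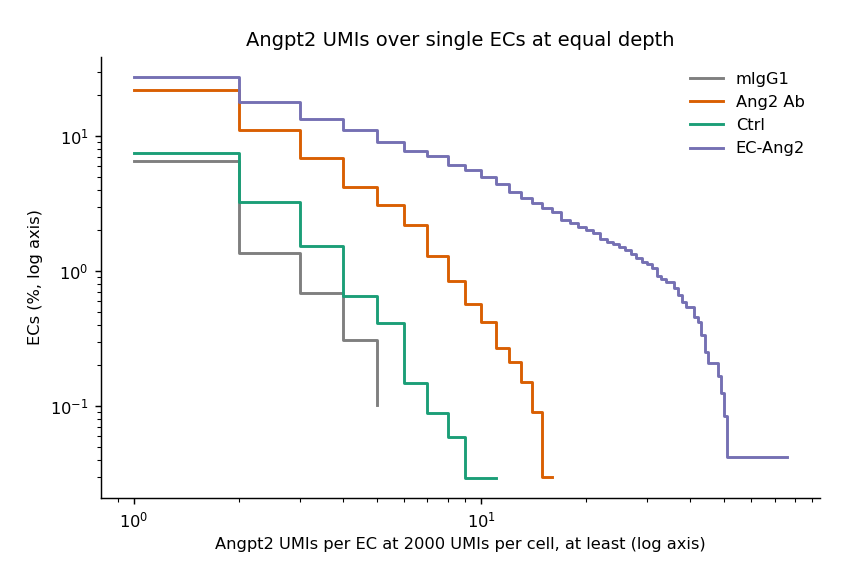
Share of ECs (y axis, percent, log axis) with at least the number of Angpt2 UMIs on the x axis (log axis), every EC thinned to 2000 UMIs, 1 line per library. The EC-Ang2 line starts at 27.3% and runs to 76 UMIs, the Ang2 Ab line starts at 22.0% and runs to 16, and the Ctrl and mIgG1 lines start at 7.51% and 6.49% and end at 11 and 5.

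In myeloid cells Angpt2 stood at 2.67% of the EC level or lower, and it was higher in Ang2 Ab than in mIgG1 and in EC-Ang2 than in Ctrl. In macrophage-like cells it was 1.32 CPM in mIgG1, 6.06 in Ang2 Ab, then 1.07 in Ctrl and 16.8 in EC-Ang2, from 29, 96, 8 and 269 UMIs. In microglia-like cells it was 0.791, 4.397, 1.49 and 20.8 CPM, from 4, 23, 13 and 31 UMIs. RNA free in the suspension gives such UMIs to every droplet, and its level was read in empty droplets (100 UMIs or fewer), where Angpt2 stood at 26.1, 74.8, 46.4 and 404 CPM. From the EC genes Cldn5, Cdh5, Flt1, Slco1a4 and Esam in the same cells, free RNA alone would give macrophage-like cells 25.9, 53.6, 28.6 and 266 Angpt2 UMIs. It would give microglia-like cells 5.85, 16.3, 21.1 and 27.6. As a share of the EC level, macrophage-like Angpt2 was 2.67%, 1.95%, 1.54% and 1.503%, beside medians of 1.69%, 1.74%, 2.34% and 1.66% over 6 EC marker genes. The Ang2 Ab count of 96 lay above the 53.6 expected, while its share of the EC level lay within the 1.37% to 3.30% of the 6 marker genes. In mIgG1 the share was just above their highest, 2.60%. Whether any myeloid Angpt2 lies beyond free RNA was not tested. EC-Ang2 over Ctrl was 15.8-fold in macrophage-like cells, beside 16.1-fold in ECs, and is not given as a change in macrophages.

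Angpt1 (ENSMUSG00000022309, chromosome 15, 42424723 to 42676977, minus strand), the ligand that activates Tie2, was near the limit of detection in every class. ECs held 8, 6, 10 and 12 Angpt1 UMIs in mIgG1, Ang2 Ab, Ctrl and EC-Ang2, which is 0.427, 0.382, 0.557 and 0.592 CPM. Mural-like cells held 0, 2, 8 and 5 UMIs. Their level was 0 CPM in mIgG1, which with 3 UMIs as the limit allows up to 4.83 CPM, with 2.17 (0.263 to 7.83) in Ang2 Ab, then 7.81 (3.37 to 15.4) in Ctrl and 10.8 (3.52 to 25.3) in EC-Ang2. These intervals overlap throughout. Macrophage-like cells held 0 Angpt1 UMIs in all 4 libraries, which allows up to 0.136, 0.189, 0.400 and 0.188 CPM, and microglia-like, T/NK and dendritic cells held 0 as well. The EC-Ang2 over Ctrl log2 ratio in mural-like cells, 0.47, had an interval from -1.49 to 2.27. No ratio can be given for the antibody pair, because mIgG1 is at 0 and Ang2 Ab holds 2 UMIs.

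Within ECs, the few Angpt1 UMIs lay mostly in arterial cells. ECs were placed in a segment by the UMIs of Bmx and Gkn3 (arterial), Mfsd2a (capillary-arterial), Slc38a5 (capillary-venous) or Ackr1 (venous). Each EC went to the list highest relative to its mean over the ECs of all 4 libraries together. A list needed at least 2 UMIs, and ECs that reached this for none were left without a segment. These segments were rebuilt here and need not match the clusters of the study. Free RNA, read from immune genes in ECs, would give 1.65, 1.91, 1.04 and 0 of the 8, 6, 10 and 12 Angpt1 UMIs. Of 36 Angpt1 UMIs in ECs of the 4 libraries, 28 were in arterial ECs, which made up 8.19%, 8.16%, 8.07% and 10.5% of ECs. The arterial level was 4.07 CPM (1.49 to 8.86) in mIgG1, 3.10 (0.845 to 7.94) in Ang2 Ab, then 5.57 (2.54 to 10.6) in Ctrl and 4.18 (1.91 to 7.93) in EC-Ang2. In capillary-venous ECs it was 0 UMIs in all 4 libraries. Of the 31 ECs with an Angpt1 UMI, 23 were arterial and 0 held a UMI of the mural genes Pdgfrb or Kcnj8. Together these genes stood at only 1.36, 3.10, 1.24 and 2.78 CPM in arterial ECs. A count of 0 in so few cells therefore cannot show whether they held mural RNA. Acta2, a smooth muscle gene chosen from the mural markers after its values were seen, was highest in arterial ECs in each library, at 7.46, 6.20, 9.28 and 3.71 CPM. The 9 mural markers together were not, at 245, 200, 233 and 117 CPM there. They stood higher in capillary-arterial ECs, at 320, 292, 285 and 158 CPM, and in ECs without a segment, at 455, 333, 474 and 219 CPM. In venous ECs they were lower, at 154, 118, 86.7 and 68.8 CPM. The part of mural RNA in the Angpt1 UMIs was not tested.

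Mural-like clusters also carried EC transcripts, and they were kept as a class in spite of this. All 9 mural markers had a UMI in at least 10% of these cells in each library, and 12 of 13 EC markers did so too. The 6 EC marker genes stood in them at medians of 58.0%, 64.7%, 64.9% and 61.9% of the EC level. Angpt2 was at 58.7%, 71.7%, 70.3% and 38.7% of its EC level, Tek at 65.2%, 73.7%, 65.8% and 75.4%, and Ptprb at 60.7%, 60.5%, 66.2% and 55.3%. A division chosen after these values were seen, at 5 Cldn5 UMIs, left 35, 28, 34 and 23 mural-like cells with fewer. Those cells held 0, 2, 1 and 3 Tek UMIs. The 64, 139, 127 and 42 cells with 5 or more held 76, 121, 111 and 36. The division took no account of depth. Of the 620694, 922278, 1023794 and 461188 UMIs of the class, the cells with fewer than 5 held 115847, 100761, 139730 and 100798. These cells with fewer held 3, 6, 3 and 64 Angpt2 UMIs, 25 of the 64 in 1 cell. Tek, Tie1 and Ptprb values of the mural-like class therefore describe barcodes that also hold EC RNA.

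**Figure D2:**
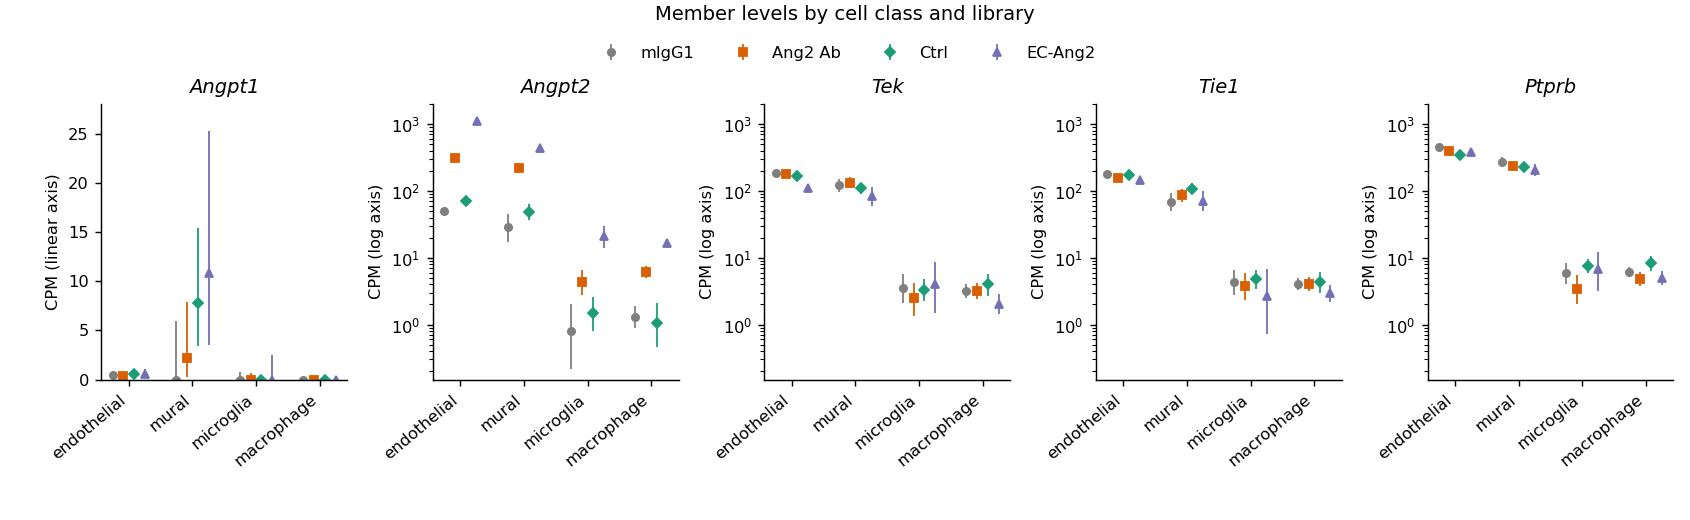
Level of each member in CPM (y axes, linear for Angpt1, log for the others) in EC, mural-like, microglia-like and macrophage-like cells, 1 point per library with its exact 95% Poisson interval, which covers counting error only. Angpt2, Tek, Tie1 and Ptprb are highest in ECs in each library, and in myeloid cells they lie at 20.8 CPM or lower.

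Tek (ENSMUSG00000006386, chromosome 4, 94739289 to 94874976, plus strand) encodes Tie2, the receptor of both ligands. In ECs it stood at 188 CPM (182 to 194) in mIgG1, 181 (174 to 188) in Ang2 Ab, then 166 (160.3 to 172) in Ctrl and 112 (108 to 117) in EC-Ang2. The antibody pair was close together, with a log2 ratio of -0.05 (-0.12 to 0.02). EC-Ang2 was the lowest of the 4 libraries and lay 0.675-fold from Ctrl, a log2 ratio of -0.57 (-0.65 to -0.49), whereas the median of all genes was -0.06. At 2000 UMIs per cell, 34.6%, 30.7%, 29.6% and 22.7% of ECs had a Tek UMI, against 0.431% to 0.747% of macrophage-like cells.

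Part of the Tek difference went with the segment makeup of the ECs, as the marker rule set it. Venous ECs were 7.66% of ECs in Ctrl and 30.7% in EC-Ang2, and venous ECs had the lowest Tek of the 4 segments in each library. The venous label rested on Ackr1 UMIs alone, and the paper lists Ackr1 among capillary-venous EC genes that changed under Ang2 blockade and under overexpression. Ackr1 stood at 151.5 CPM in Ctrl and 730 in EC-Ang2 in arterial ECs, and at 7834.5 and 6026 in venous ECs. Whether the venous share rose through more venous cells or more Ackr1 per cell was not tested. Ratios within segments of this pair carry this limit, as do ratios taken with the segment shares of Ctrl. With the segment shares of Ctrl applied to EC-Ang2, the Tek log2 ratio was -0.30. Within segments it was -0.54 (-0.76 to -0.32) in arterial, -0.22 (-0.46 to 0.02) in capillary-arterial, -0.28 (-0.45 to -0.12) in capillary-venous and -0.46 (-0.66 to -0.25) in venous ECs. It was -0.22 (-0.39 to -0.06) in ECs without a segment. All 5 groups of EC-Ang2 cells were thus below their Ctrl group, 4 of them beyond counting error.

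The arterial to venous order of Tek recurred in the 4 libraries. Arterial ECs held 252, 220.1, 224 and 154 CPM in mIgG1, Ang2 Ab, Ctrl and EC-Ang2, and venous ECs 138, 135, 105.5 and 76.7 CPM. Capillary-arterial values were 209, 197, 179 and 154 CPM and capillary-venous values 185, 188, 168.5 and 138 CPM. Intervals of neighbours in this order overlapped in several libraries, while arterial and venous intervals were apart in each one. Segments were set by UMIs before thinning. Venous ECs were also deeper, with medians of 6221 to 10993 UMIs against 4167 to 7145 in arterial ECs. At equal depth, a Tek UMI was found in 40.4%, 39.7%, 35.8% and 30.3% of arterial and in 26.8%, 21.8%, 18.5% and 14.3% of venous ECs, the same order.

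Tie1 (ENSMUSG00000033191, chromosome 4, 118471191 to 118490061, minus strand), the partner receptor without a known high-affinity angiopoietin of its own, was lower in the treated library of both pairs. It stood at 178 CPM (172 to 184.5) in mIgG1, 154 (148 to 160.0) in Ang2 Ab, then 174 (167.5 to 179.8) in Ctrl and 145 (139.7 to 150.2) in EC-Ang2. The log2 ratios were -0.21 (-0.29 to -0.14) for the antibody pair and -0.26 (-0.33 to -0.19) for the transgenic pair. Among all genes with enough UMIs, 16.4% had a lower ratio than Tie1 in the antibody pair and 27.1% in the transgenic pair. With the segment shares of Ctrl the ratio of the transgenic pair was -0.10. Venous ECs were also lowest for Tie1 among the 4 segments in all libraries, with 157, 142, 138 and 128 CPM against 212, 174, 195 and 154 in arterial ECs. Capillary-arterial ECs held 201, 153, 191 and 189 CPM and capillary-venous ECs 182, 157, 173 and 167 CPM, so that in EC-Ang2 both capillary groups were above the arterial one. A Tie1 UMI was found in 29.1%, 27.01%, 29.7% and 26.3% of ECs at 2000 UMIs.

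Promoter windows from RefSeq (GRCm38.p6, 250 bases before to 50 after a start site) were at hand for 2 of the 5 members, Tek and Tie1. They were searched on both strands for CAGGAA, a core that ETS factors of the endothelium are known to bind. The windows below are shown because they are the receptor genes of the system, both lowest in venous ECs among the 4 segments. Each line is read on the gene's own strand, with the match, here TTCCTG, in capitals.
Tek, chr4:94739190-94739215: tgttattcaaTTCCTGgcctatgaga
Tek, chr4:94739220-94739245: acccctattgTTCCTGaaaatgctga
Tie1, chr4:118490043-118490068: cttcctccctTTCCTGtctcccgtgc
The Tek matches began 89 and 59 bases before the start site. The Tie1 match began 209 bases before the RefSeq start site and lay inside an annotated GENCODE exon of Tie1. Of all 32851 promoter windows 30.6% held this motif, so its presence is a description of the sequence only.

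Ptprb (ENSMUSG00000020154, chromosome 10, 116275523 to 116389535, plus strand), the phosphatase that acts on Tie2 and VE-cadherin, was found in 45.9% to 56.7% of ECs at 2000 UMIs. Its EC level was 451 CPM (442 to 461) in mIgG1, 391 (381 to 401) in Ang2 Ab, then 345 (337 to 354) in Ctrl and 377 (368 to 385) in EC-Ang2. The log2 ratio was -0.21 (-0.25 to -0.16) for Ang2 Ab over mIgG1 and 0.13 (0.08 to 0.18) for EC-Ang2 over Ctrl. Among all genes with enough UMIs, 17.2% and 70.1% had a lower ratio than Ptprb in these pairs. By library the shares of ECs with a Ptprb UMI were 56.7%, 50.7%, 45.9% and 48.9%. EC-Ang2 was below Ctrl in arterial ECs, 390.1 against 499.6 CPM, and above it in venous ECs, 367 against 265 CPM. The log2 ratios there were -0.36 (-0.50 to -0.22) and 0.47 (0.35 to 0.59). The venous label rested on Ackr1 UMIs alone, so these ratios carry the limit given for Tek.

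The receptors and the phosphatase were low in myeloid cells. Macrophage-like cells held 3.23, 3.22, 4.00 and 2.06 CPM of Tek, 4.09, 4.10, 4.27 and 2.94 CPM of Tie1 and 6.14, 4.86, 8.27 and 5.003 CPM of Ptprb. Free RNA alone would give 119% to 133% of the Tek UMIs there, 109% to 156% of the Tie1 UMIs and 135% to 194% of the Ptprb UMIs. Microglia-like cells held 2.48 to 4.02 CPM of Tek, and free RNA would give 74.4% to 158% of those UMIs, 87.5% to 133% of the Tie1 UMIs and 95.7% to 253% of the Ptprb UMIs. The lowest of these was Tek in EC-Ang2, with 6 UMIs against 4.47 expected. ECs held 92.5% to 96.1% of all Tek UMIs in the cells used.

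Angpt2 was spread over the segments in another order than the receptors, and that order differed between libraries. In mIgG1 it was 21.0 CPM in arterial, 24.4 in capillary-arterial, 38.3 in capillary-venous and 70.0 in venous ECs. In Ang2 Ab the values were 157, 494, 227 and 252 CPM, in Ctrl 66.2, 69.7, 29.5 and 69.2 CPM, and in EC-Ang2 913, 619, 782 and 1198 CPM. ECs without a segment held 66.4, 444, 125 and 1448 CPM. They were the highest group in Ctrl and EC-Ang2 and the second in mIgG1 and Ang2 Ab. The segment with the highest level was venous in mIgG1 and EC-Ang2 and capillary-arterial in Ang2 Ab. In Ctrl it depended on the marker rule.

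The Angpt2 ratio was above 1.5-fold in every segment of both pairs, and its size differed. For Ang2 Ab over mIgG1, the log2 ratio was 4.34 (3.95 to 4.76) in capillary-arterial ECs, from 55 and 965 UMIs, and 1.85 (1.68 to 2.02) in venous ECs, from 398 and 868 UMIs. Arterial, capillary-venous and unplaced ECs lay between them, at 2.90, 2.56 and 2.74. For EC-Ang2 over Ctrl it was highest in capillary-venous ECs, 4.73 (4.49 to 4.97), and lowest in capillary-arterial ECs, 3.15 (2.96 to 3.35). Arterial, venous and unplaced ECs stood at 3.79, 4.11 and 3.53.

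**Figure D3:**
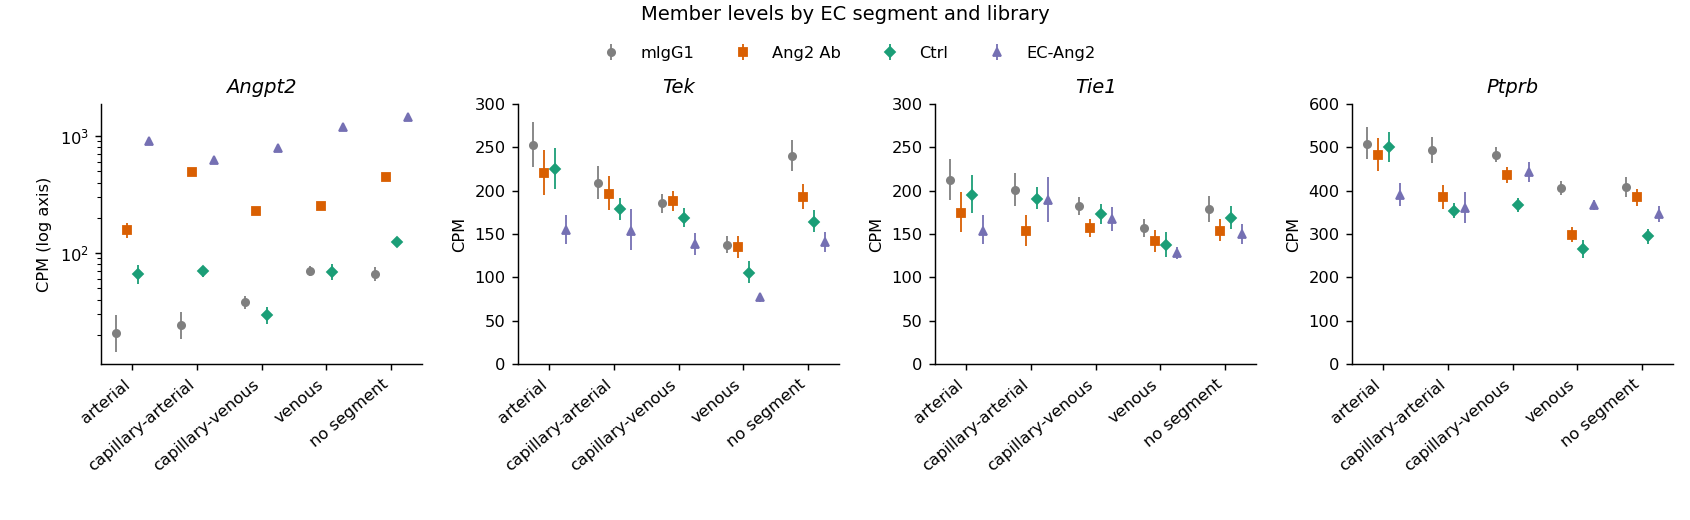
Level of Angpt2 (log axis), Tek, Tie1 and Ptprb (linear axes from 0) in CPM in the 4 EC segments and in ECs without a segment, 1 point per library with its exact 95% Poisson interval for counting error only. Tek falls from arterial to venous ECs in each library, from 252 to 138 CPM in mIgG1 and from 154 to 76.7 CPM in EC-Ang2, while Angpt2 shows no shared order.

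**Figure D4:**
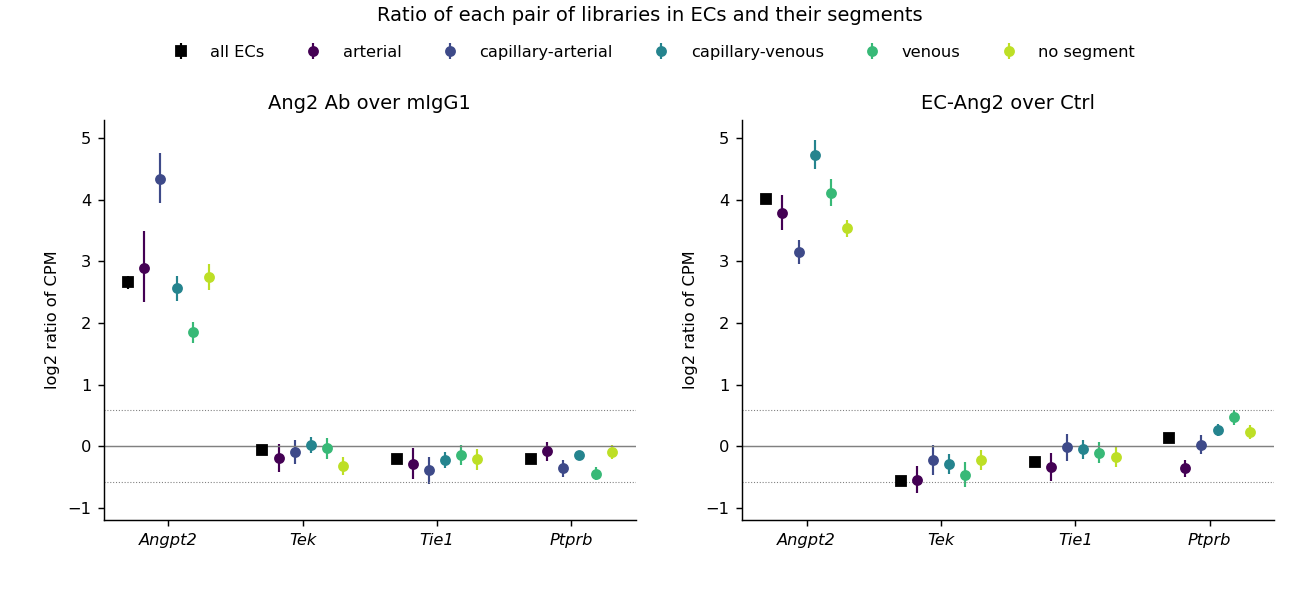
Log2 ratio of CPM (y axes) of 4 members for Ang2 Ab over mIgG1 (left) and EC-Ang2 over Ctrl (right), in all ECs (squares) and by segment (circles), with exact 95% intervals for counting error only and dotted lines at 1.5-fold. All Angpt2 points lie at 1.85 or above, and no point of Tek, Tie1 or Ptprb passes the dotted lines.

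ECs with Angpt2 UMIs differed from ECs without in the same direction in several genes of the other lists. At 2000 UMIs per cell, 40, 371, 111 and 430 ECs of mIgG1, Ang2 Ab, Ctrl and EC-Ang2 held 2 or more Angpt2 UMIs, and 2739, 2599, 3140 and 1738 held 0. The former were more often without a segment, 42.5%, 44.5%, 57.7% and 38.4% against 26.6%, 31.4%, 28.3% and 33.6%. Adm, which encodes the vasoactive peptide adrenomedullin, was higher in them in all 4 libraries, with log2 ratios of 2.34 (1.88 to 2.77), 1.86 (1.602 to 2.11), 1.43 (1.03 to 1.82) and 1.198 (1.00 to 1.39). Tubb6, a beta-tubulin, had ratios of 1.15, 1.28, 1.78 and 1.05, each with an interval above 0. Apln, the tip-cell peptide apelin, had log2 ratios of 4.13 (2.68 to 5.78) in Ang2 Ab, from 15 and 6 UMIs, and 2.46 (1.88 to 3.06) in EC-Ang2. In mIgG1 the Apln ratio was 1.57 (-3.79 to 4.20), from 1 UMI in the ECs with Angpt2. Pgf, placental growth factor and a ligand of VEGFR1, had 5.98 (3.92 to 9.13) in Ang2 Ab and 3.50 (2.80 to 4.23) in EC-Ang2. The first came from only 18 UMIs in the ECs with Angpt2 and 2 in those without.

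Tek was lower in the ECs with Angpt2 beyond counting error in 3 of the 4 libraries. Its log2 ratios were -1.15 (-2.37 to -0.17) in mIgG1, from 8 UMIs, -0.51 (-0.81 to -0.22) in Ang2 Ab, then -0.85 (-1.51 to -0.25) in Ctrl and -0.19 (-0.50 to 0.11) in EC-Ang2, where the interval includes 0. Tie1 gave -0.36, -0.29, -0.76 and 0.04, with an interval clear of 0 in Ctrl only. Klf2, a flow-responsive transcription factor of quiescent endothelium, was lower in all 4 libraries, with -0.84 (-1.09 to -0.60), -0.84 (-0.92 to -0.76), -0.48 (-0.60 to -0.37) and -0.72 (-0.80 to -0.63). The median over all genes lay between -0.04 and 0.13. Among ECs without a segment alone, the Tek ratio was -2.15 (-5.20 to -0.29), -0.19 (-0.61 to 0.22), -0.68 (-1.54 to 0.06) and -0.03 (-0.51 to 0.43), so that its interval was below 0 in mIgG1 only, from 2 UMIs, and the Klf2 ratio was -1.02, -0.95, -0.46 and -0.72. Cells of a library are not replicates of a condition, and these are descriptions of cells within each library.

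**Figure D5:**
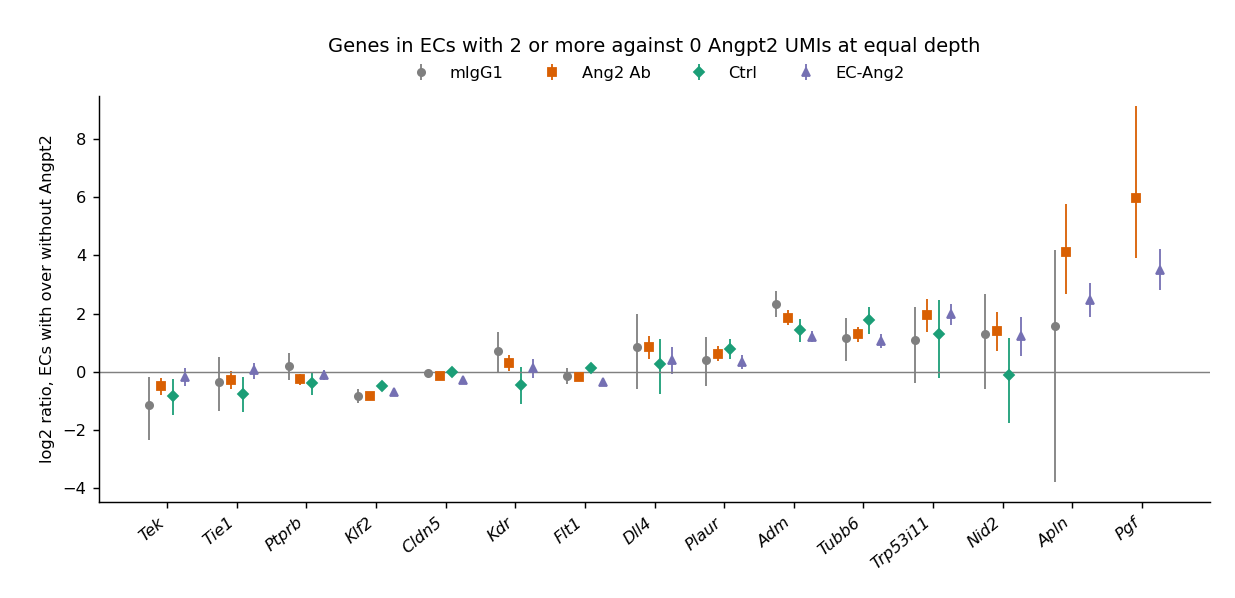
Log2 ratio of CPM between ECs with 2 or more and with 0 Angpt2 UMIs (y axis), every EC thinned to 2000 UMIs, for 15 genes (x axis) and 4 libraries, with exact 95% intervals for counting error only. Points are missing where a gene had under 20 UMIs or none on 1 side. Adm and Tubb6 lie above 0 and Klf2 below 0 in all 4 libraries, and Tek lies below 0 with an interval that includes 0 in EC-Ang2.

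The rest of the pathway was read from lists, chosen with earlier results of these data known. Ratios of listed genes are over all ECs and were not taken by segment. ECs labelled venous were 7.66% in Ctrl and 30.7% in EC-Ang2, so ratios of that pair can also carry the segment makeup. Of 17 genes of Tie signalling, 13 had at least 50 UMIs in the ECs of each pair. For Ang2 Ab over mIgG1, 0 of 13 were at least 1.5-fold higher and 0 lower, beside 2.99% and 4.21% of all genes. Their median log2 ratio was 0.12, beside 0.04 for all genes. For EC-Ang2 over Ctrl, 0 of 13 were higher and 3 lower, beside 8.55% and 8.5% of all genes, with a median of -0.06 beside -0.06. The 3 were Klf2, at 3577 CPM in Ctrl and 1703 in EC-Ang2, Grb14, at 80.0 and 42.0 CPM, and Grb7, at 10.9 and 6.22 CPM. Grb14 and Grb7 are adaptors that dock on activated receptors, Tie2 among them. Foxo1, the transcription factor restrained by Tie2 through Akt, stood at 71.8 and 88.4 CPM, a log2 ratio of 0.30 (0.20 to 0.41), and Nos3, the endothelial nitric oxide synthase, at 127 and 113 CPM. The alternative ligands Angpt4 and Svep1 fell below this minimum, with at most 1 UMI in the ECs of any library.

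The integrin subunits through which Ang2 can also signal were divided. In the transgenic pair 3 of 5 were at least 1.5-fold higher in EC-Ang2 ECs (8.55% of all genes were) and 1 lower (8.5% of all genes), with a median log2 ratio of 0.89 beside -0.06 for all genes. Itga5, the fibronectin-receptor subunit alpha5, was 21.4 CPM in Ctrl and 52.1 in EC-Ang2, a log2 ratio of 1.28 (1.11 to 1.45). Itgb3 was 1.62 and 7.11 CPM, Itgav 6.91 and 12.8 CPM, and Itgb5 lower at 7.91 and 3.55 CPM. In the antibody pair 0 of 5 passed 1.5-fold in either direction, where 2.99% of all genes were higher and 4.21% lower. Itga5 was 40.2 CPM in mIgG1 and 29.3 in Ang2 Ab. Unlike the Tie receptors, Itga5 was also found in myeloid cells, with 32.1, 34.9, 40.7 and 34.4 CPM in macrophage-like and 26.3, 31.9, 34.4 and 27.5 CPM in microglia-like cells.

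Other vascular receptors and sprouting genes were set beside the members in ECs. Of 9 genes (VEGF receptors, neuropilins, Eng, Acvrl1, Ephb4 and its ligand Efnb2), 0 passed 1.5-fold in the antibody pair. There 2.99% of all genes were higher and 4.21% lower. In EC-Ang2, 2 of the 9 were lower, Flt1 (1734 and 1096 CPM) and Nrp1 (225 and 128 CPM), beside 8.5% of all genes. Another, Nrp2, was higher (33.8 and 56.2 CPM), beside 8.55% of all genes. Of 11 sprouting genes, 8 had enough UMIs in the transgenic pair and 5 were at least 1.5-fold higher (8.55% of all genes were), with a median log2 ratio of 1.12 beside -0.06 for all genes. They were Pgf (1.67 and 25.4 CPM), Apln (3.85 and 36.5 CPM), Trp53i11 (15.2 and 78.9 CPM), Tubb6 (92.5 and 219 CPM) and Adm (106 and 211 CPM). In the antibody pair 9 had enough UMIs. Of these, 3 were higher (Apln, Pgf and Dll4), beside 2.99% of all genes, and 1 lower (Trp53i11, 56.0 and 33.6 CPM), beside 4.21%. Of 8 junction and barrier genes, 1 was higher in EC-Ang2 (Plvap, 0.669 and 3.90 CPM, from 12 and 79 UMIs) and 1 lower (Ocln, 279.8 and 173 CPM). The shares of all genes there were 8.55% and 8.5%. None of the 8 passed in the antibody pair, beside 2.99% and 4.21% of all genes. Of 5 platelet genes, a list of cells that also carry Ang1, 1 had enough UMIs in the antibody pair (Itga2b, log2 ratio 0.03). In the transgenic pair 2 had enough, of which Ppbp was lower, 3.96 and 1.04 CPM, beside 8.5% of all genes.

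The genes whose levels were most like each member were taken over 20 groups (5 EC groups in 4 libraries), by Pearson's r of log2(CPM + 5) among 5633 genes. These groups share libraries and depth, so r is only descriptive. For Tek they were C130074G19Rik, Rapgef2, Atp10a, Btbd7 and Slc30a1, with r of 0.92 for each. For Tie1 they included Pcp4l1 (0.91), Eif4h (0.88), Far2 (0.87) and Rnf103 (0.86). For Ptprb the highest were 1700020I14Rik (0.82), Rab13 (0.81), Lamtor4 (0.80), AU021092 (0.79) and Tm6sf1 (0.79). For Angpt2 they were Cox7a2 (0.86), Tagln2 (0.86), Plin2 (0.85), AA467197 (0.84) and Fbxl5 (0.78). Between members, r was 0.77 for Tek and Tie1, 0.62 for Ptprb with each of them, and -0.50, -0.61 and -0.29 for Angpt2 with Tek, Tie1 and Ptprb.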

How the data were processed

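The authors made 3' single-cell libraries on the 10x Chromium platform. Their processing notes name Cell Ranger 2.1.1, Seurat 2.3.4 and mm10. The deposited matrices hold raw UMI counts per gene and barcode, before the cell filters of the study. Barcodes with at least 2000 UMIs and under 10% mitochondrial UMIs were kept. The highest Scrublet scores (scanpy 1.11.5) were removed as doublets at a preset rate that grows with the barcodes loaded (235 to 449 per library), and cells were clustered per library with Leiden (igraph 0.11.9) without the members or listed genes. Cycling cells were kept. Clusters were named from marker lists, barcodes that matched several lists being left out except for mural-like clusters, and barcodes of mixed or unnamed clusters were used in no class. UMIs were summed per class and library and divided by the class total (CPM). Named genes are the members and listed genes with at least 50 UMIs in a pair; for likeness, the 5 highest r. A gene of these is not reported here. The ratio code was tested on simulated counts. The members and lists were chosen with earlier results of these data known. Depth was 52084739 to 66631583 UMIs per library. Alternatives covered cell filters, class rules, scaling, free RNA and segment rules.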

Additional observations from a re-analysis of the deposited data

Results flagged for a closer look

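The Ptprb log2 ratio of EC-Ang2 over Ctrl took opposite signs in EC segments, with counting intervals clear of 0 on both sides. It was -0.36 in arterial ECs, 0.27 in capillary-venous ECs, 0.47 in venous ECs and 0.23 in ECs without a segment. With 1 library per condition the difference between segments was not tested. Ackr1, which alone set the venous label, itself stood at 151.5 CPM in Ctrl and 730 in EC-Ang2 in arterial ECs. Whether the venous groups of the 2 libraries held like cells was not tested.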

How the results depend on the processing

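No paired analysis was possible because each condition is 1 library, and no library could be left out for the same reason. The Angpt2 log2 ratio in ECs kept its sign in 9 of 9 alternatives per pair, from 2.58 to 2.77 for Ang2 Ab over mIgG1 and from 3.68 to 4.09 for EC-Ang2 over Ctrl, and Tek from -0.16 to -0.04 and from -0.58 to -0.30. Values outside the counting interval of the reported ratio were 2.77 for Angpt2 in the antibody pair with barcodes of at least 4000 UMIs, and, with the mean over cells of CPM, -0.16 for Tek in the antibody pair, 3.68 for Angpt2 and -0.40 for Tek in the transgenic pair. With the segment shares of Ctrl, an alternative added after the data were seen, the transgenic pair gave 3.78 for Angpt2 and -0.30 for Tek. Tie1 and Ptprb kept their signs in 9 of 9 alternatives per pair. Tie1 reached -0.10 with the segment shares of Ctrl. Ptprb reached -0.26 in the antibody pair without cycling cells, and 0.20 with the mean over cells and 0.19 scaled by the median gene in the transgenic pair. Angpt1 in mural-like cells of the transgenic pair ran from -0.03 to 1.52, with the same sign in 6 of 8 alternatives, and in the antibody pair no alternative was computed because mIgG1 had 0 UMIs in these cells. Genes at least 1.5-fold higher and lower in ECs numbered 337 and 475 in Ang2 Ab and 971 and 965 in EC-Ang2. A minimum of 10 UMIs per pair in place of 50 gave 775 and 1038, and 1604 and 1557. A 2-fold limit gave 81 and 167, and 431 and 314. In ECs with against ECs without Angpt2, 14 of 40 alternatives, all added later, moved outside the counting interval, among them Klf2 in mIgG1 from -0.84 to -1.54 with 3 or more UMIs, Adm in Ctrl from 1.43 to 0.83 and Tek in Ang2 Ab from -0.51 to -0.19 among ECs without a segment. Another changed sign: Trp53i11 in Ctrl, at -0.21 with 3 or more Angpt2 UMIs, from 1 Trp53i11 UMI in those cells, against 1.28 with 2 or more. The segment with the highest Tek was arterial in 4 of 4 libraries and in 3 under other UMI minimums. The low number of mural-like cells limits Angpt1, and the cause of the other changes was not tested.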
